A study of Rattus norvegicus with 9 samples.

Results

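The comparison described here set the infarcted hemispheres of rats given Danhong injection (DHI) after ischemia against those of sham-operated rats (Sham), to see which transcripts were still away from the Sham level at day 14. It used all 3 arrays titled DH and all 3 titled sham, 6 of the 9 arrays of the series. The remaining 3 arrays came from rats with ischemia and reperfusion but without DHI (I/R), and their values are given beside those of DHI. All animals were male Sprague-Dawley rats on normal chow with no genetic change, and each array was taken as the hemisphere of 1 rat, since the methods give 3 per group. I/R and DHI rats had the middle cerebral artery closed for 2 h with a nylon filament that was then withdrawn. In Sham rats surgery stopped at the external carotid artery, without occlusion, and solvent was injected in place of DHI. DHI, an intravenous preparation of the roots of Salvia miltiorrhiza and the flowers of Carthamus tinctorius, was injected daily for 14 days after surgery. No DHI-injected Sham group was among the arrays, so an effect of DHI on uninjured brain could not be separated from an effect on injury.

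After a stroke, neurons in the core of the infarct die within days. Microglia and blood-borne macrophages divide, take up debris and present antigen, and astrocytes around the lesion become reactive, with high intermediate filament expression. Surviving neurons keep a small set of immediate early genes in step with their activity, so that these transcripts vary with neuronal firing and with handling of the animal. The choroid plexus and the ependyma, which make and line the fluid of the ventricles, lie beside the striatum and are taken with the hemisphere to a degree that depends on dissection.

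Signals are given as the log2 intensity of a probe minus the log2 of the 75th percentile of its array, so 0 marks a bright probe and values near -8 lie close to background. On this scale a difference of 1 is a 2-fold change. The 75th percentile was 2570 to 2745 intensity units on the Sham arrays and 1816 to 2785 on the DHI arrays. The share of probes well above background was 75.2% to 78.9% per array, and the number of arrays limits the precision. The Sham and I/R arrays shared slide 1, while the DHI arrays were on slide 2, so slide and DHI cannot be told apart.

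The DHI arrays differed from each other far more than the Sham arrays did, and few transcripts were away from Sham on all of them. The median SD of a probe was 0.15 over the Sham arrays and 0.40 over the DHI arrays. Of 13651 genes with a symbol, DHI 1 had 20.8% more than 1.5-fold above the range of the Sham arrays and 21.7% more than 1.5-fold below it. DHI 2 had 2.79% above and 1.78% below, and DHI 3 had 5.11% above and 1.68% below. DHI 1 thus lay far from Sham and DHI 2 and DHI 3 much closer, with DHI 3 farther than DHI 2 only in genes above Sham.

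Of 23747 probes tested, 849 were called at the thresholds of the study, an unadjusted p below 0.05 in the limma model and a fold change above 1.5. The call was higher in DHI for 598 probes (2.52%) and lower for 251 (1.06%). Of the 23747 probes, 1294 had an unadjusted p below 0.05 in limma. With no difference between the groups, a share near 0.05 of the probes would pass this threshold. No probe passed after Benjamini-Hochberg adjustment in limma, where the smallest adjusted p was 0.709. The t-test named in the methods also left 0 probes after adjustment. Each call below therefore rests on the unadjusted p. Its direction also depended on how arrays were scaled. Higher probes made up 70.4% of the calls here, 92.9% with normexp background correction, 37.5% with quantile normalization, 37.0% with the authors' own table, 36.4% with scaling to spike-in probes (a setting chosen after seeing the data) and 5.21% with no scaling. Over all probes the median log2 fold change was 0.02, 0.14, -0.06, -0.06, -0.06 and -0.25 in the same order. Differences of the named genes below are read against these shifts.

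A probe was counted as away from Sham when each of the 3 DHI arrays lay more than 1.5-fold beyond the nearest Sham array on the same side. This held for 88 probes, 60 higher (0.253%) and 28 lower (0.118%). By the weaker measure of groups that did not overlap, 2436 probes were higher (10.3%) and 1978 were lower (8.33%). Both splits turned with the scaling. Of the probes away from Sham, 27 of 82 were higher with quantile normalization, 26 of 81 with the authors' table, 23 of 82 with scaling to spike-in probes, 11 of 244 with no scaling and 115 of 122 with normexp correction. Of the 88 probes, 55, 53, 45, 37 and 32 were still away in the same order. Of the probes not overlapping, 1372 of 4312, 1353 of 4304, 707 of 4855, 240 of 7595 and 4295 of 5647 were higher. Of the 88 probes, 76 were also called, 74 stood well above background on every array of the group where they were higher and 70 carried a gene symbol. DHI 1 was the DHI array farthest from Sham for 70 of them, DHI 3 for 11 and DHI 2 for 7. DHI 2 was the nearest for 49. The I/R mean lay on the same side of Sham for 87 of the 88, and its difference from Sham was the larger for 67. Both differences share the Sham arrays, so these counts describe the probes and give no independent support.

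**Figure D1:**
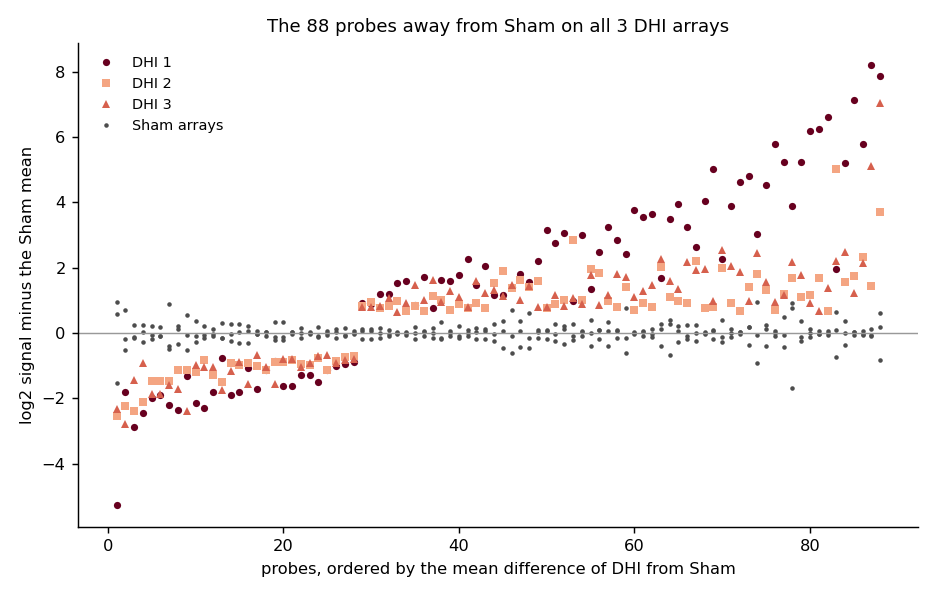
The 88 probes away from Sham on all 3 DHI arrays, ordered along the x axis by mean difference, with the log2 signal minus the Sham mean on the y axis. Points in red shades are the DHI arrays and small dark points the Sham arrays. DHI 1 is the farthest array for 70 of the 88 probes, while DHI 2 and DHI 3 mostly lie closer to the Sham points.

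Counted by gene, with the brightest probe standing for each, 344 genes were called higher (2.52%) and 155 lower (1.14%). Those away from Sham were 36 higher (0.264%) and 18 lower (0.132%), and those not overlapping were 1295 higher (9.49%) and 1275 lower (9.34%). Any probe of a gene could enter the list of residual genes, and 50 genes had a probe that was both called and away and was well above background where it was higher, 34 of them higher in DHI and 16 lower. The 12 with the largest gap to Sham in each direction are described next. The members nearest the threshold inside it were Apoc2, an activator of lipoprotein lipase, with a gap of 0.60, and Tpd52l3, also at 0.60. Cfi, the complement factor that cleaves C3b, was just outside it at 0.58.

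The transcript farthest from Sham was Ttr, transthyretin, the carrier of thyroxine and retinol that the choroid plexus secretes. Its probe lies at chr18:12413621-12413680 (rn4). Ttr read -0.65, -1.65 and -0.21 on the Sham arrays and 7.05, 2.88 and 6.20 on the DHI arrays. On the I/R arrays it was -0.54, 0.19 and 6.53. All DHI arrays were above all Sham arrays, with DHI 2 the lowest, and only 1 I/R array was as high. The log2 fold change of DHI over Sham was 6.21 with an SE of 1.85, or 74.2-fold (adjusted p = 0.709, limma).

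The other choroid plexus genes varied with Ttr. The list of 15 includes Ttr, as do the counts that follow. Of 12 tested, 5 were called higher (2.52% of all genes were) and 0 lower. The mean was higher for 12, and the median log2 fold change was 2.16, against 0.0014 for all genes. Sostdc1, a secreted antagonist of BMP and Wnt signals, read -5.84, -7.03 and -6.27 on Sham and 1.63, -5.57 and -1.91 on DHI. Folr1, the folate receptor, read -5.92, -5.92 and -4.03 on Sham and 1.42, -4.61 and -1.01 on DHI. Both were high on DHI 1, intermediate on DHI 3 and near or within the Sham range on DHI 2. Their log2 fold changes were 4.43 (SE 1.74) and 3.89 (SE 1.34), and neither was called without DHI 1. Msx1, a homeobox factor, was higher by 1.73, with DHI arrays from -2.05 to 1.26 and Sham arrays from -2.61 to -2.38. The list had 1 call without Sham 1 or Sham 2, 2 without DHI 1 or DHI 3, 3 without Sham 3 and 9 without DHI 2. Ttr was called in each of these fits, so where the list had 1 call it was Ttr. The summed level of the list, relative to the Sham mean, was 0.795 to 1.33 on Sham, 2.75 to 38.7 on DHI and 1.57 to 24.6 on I/R. Linear signals were summed with Ttr included, so the sum does not describe the other genes apart from Ttr. The defining markers Kl, Prlr and Cldn2 were not tested, as their probes did not pass the filter on dim signals. The part that the amount of choroid plexus in each sample played in Ttr was not tested. In such bulk tissue, fewer or more cells of a type and less or more RNA per cell cannot be told apart. Ependymal genes moved on the same arrays. Foxj1, the master regulator of motile cilia, read -3.68, -3.89 and -2.67 on Sham and 0.42, -3.41 and -0.77 on DHI. Of 9 ependymal genes tested, 3 were called higher, with a median of 1.93, and the summed level was 0.859 to 1.08 on Sham and 0.801 to 4.98 on DHI, where DHI 2 lay below every Sham array. Glycam1, a mucin-like ligand of L-selectin, followed the same order of arrays. It was not well above background on any Sham array and read -0.27, -7.06 and -3.37 on DHI. By the means it was 30.4-fold higher, while DHI 2 was 2.47-fold above the nearest Sham array. Without DHI 1 its log2 fold change was 3.28, against 4.93 with it, and it was not called.

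Some residual genes were at much the same level on all DHI arrays. Kif15, a kinesin of the mitotic spindle, was the clearest. It read -6.86, -7.12 and -7.35 on Sham, -4.47, -4.90 and -5.18 on DHI and -4.09, -3.91 and -5.43 on I/R. The DHI arrays lay close to each other, and the lowest was 1.68 above the highest Sham array. The log2 fold change was 2.26 with an SE of 0.40 (unadjusted p = 0.000489, adjusted p = 0.709, limma). Clrn1, a membrane protein of hair cells and photoreceptors, read -6.95, -7.62 and -7.45 on Sham and -5.07, -5.34 and -4.79 on DHI. Its I/R arrays read -5.94, -5.23 and -7.35, so 1 of them was within the Sham range while no DHI array was. Cass4, a scaffold protein of focal adhesions, read -6.60, -7.67 and -7.39 on Sham and -5.64, -5.80 and -5.77 on DHI. The 3 DHI arrays were close to each other and above all Sham arrays, with a log2 fold change of 1.48 (SE 0.34). Hist2h3c, the array's name for a probe to a histone H3 sequence, read -6.50, -7.51 and -8.39 on Sham and -4.43, -5.65 and -5.00 on DHI. Histone H3 genes are near-identical copies, so the signal may come from several of them. Vcsa2, a salivary gland protein, was dim. It was not well above background on any Sham array, read -8.14, -7.53 and -7.71 on DHI and was at least 2.06-fold higher.

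In the other genes of the higher set, DHI 1 stood well above DHI 2 and DHI 3. Lcn2, lipocalin 2, an iron-siderophore binding protein of reactive astrocytes and neutrophils, read -5.50, -5.38 and -5.34 on Sham and -1.85, -4.48 and -4.11 on DHI. Phf11, a PHD finger protein linked to interferon responses, read -6.57, -6.45 and -7.08 on Sham and -2.18, -5.39 and -5.12 on DHI. Its brightest probe, at 1.60, and a dim one, at 1.63, were neither called nor away, so the Phf11 values here are those of 1 probe of 3. Nid1, the basement membrane protein nidogen, read -3.47, -3.33 and -3.81 on Sham and 0.41, -2.55 and -2.17 on DHI. In each of the 3 genes DHI 2 and DHI 3 were above the Sham arrays by a smaller step, and the I/R means were farther still, with differences of 3.34, 5.51 and 3.81 on the log2 scale against 1.93, 2.47 and 2.10 for DHI. The nonclassical class I genes RT1-T24-4 and RT1-T24-1 had log2 fold changes of 1.64 and 2.40 (1.41 and not called by the other RT1-T24-1 probe), but they belong to a family of near-identical genes whose probes can take up each other's transcripts. Lcn2 and RT1-T24-4 were not called without DHI 1, while Phf11, Nid1 and RT1-T24-1 were.

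**Figure D2:**
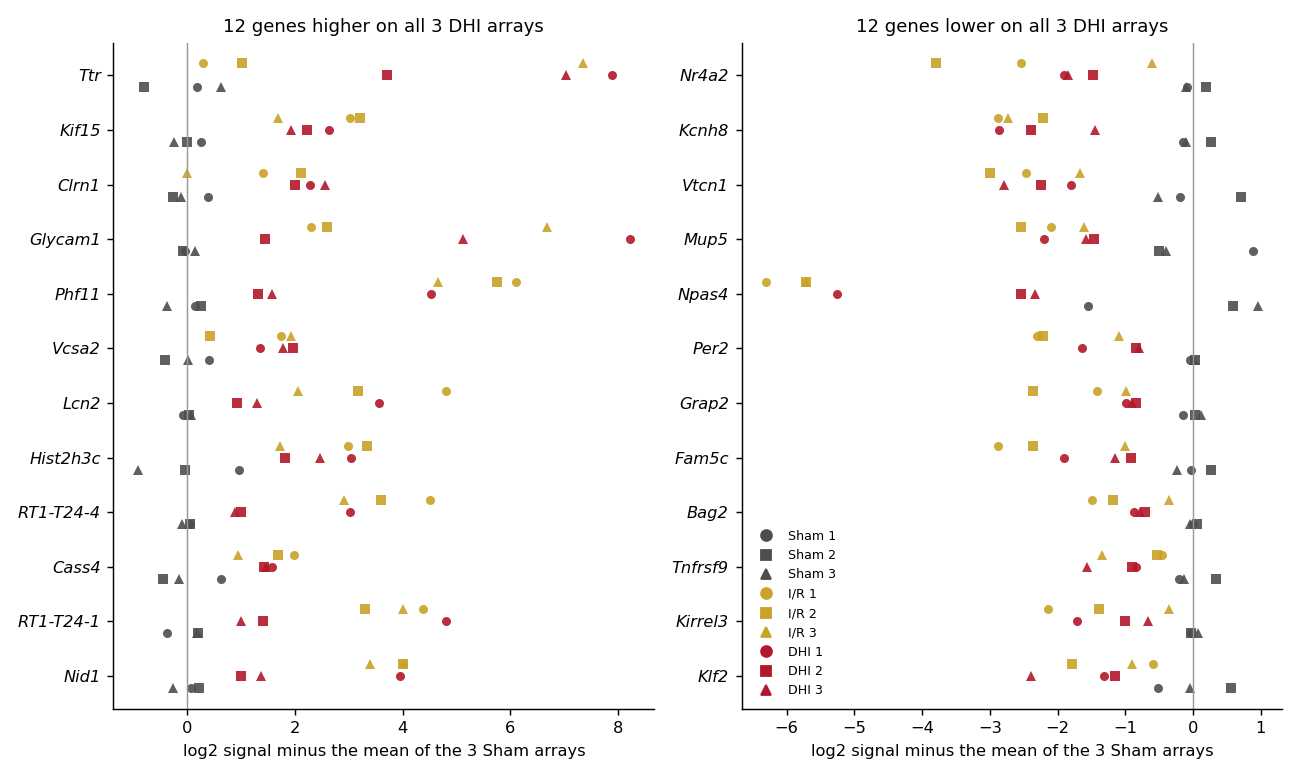
The 12 genes with the largest gap above Sham (left) and below it (right). Each point is 1 array, the x axis is the log2 signal minus the mean of the 3 Sham arrays, colors mark the groups and shapes the array number. Kif15, Clrn1 and Cass4 have DHI points close together, whereas in Ttr, Phf11 and Nid1 DHI 1 lies well to the right of DHI 2.

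Genes of cell division formed the list with the most calls. Of 20 tested, 11 were called higher (2.52% of all genes were), 2 were away from Sham, 20 had a higher mean, and the median log2 fold change was 1.59. Cdk1, the kinase that drives entry into mitosis, read -4.22, -4.50 and -4.02 on Sham, -0.11, -3.66 and -2.0 on DHI and -0.06, 0.31 and -0.81 on I/R. Top2a, the topoisomerase of dividing cells, read -6.73, -7.04 and -6.45 on Sham and -2.39, -6.62 and -4.17 on DHI. DHI 1 was near the I/R arrays for both, DHI 3 was intermediate and DHI 2 was above every Sham array for Cdk1 but not for Top2a. The log2 fold changes were 2.32 (SE 0.78) and 2.35 (SE 0.91). Ccnb2, cyclin B2, and Bub1b, a kinase of the spindle checkpoint, were the 2 away from Sham, with log2 fold changes of 2.26 and 2.28. Aurkb and Cenpf, of the chromosome passenger complex and the kinetochore, were well above background on no Sham array and on 2 DHI arrays. By their means they were at least 4.79-fold and 5.42-fold higher, but DHI and Sham overlapped for Aurkb. A second, dimmer Cenpf probe was at 1.80 and not called. The other calls were Mcm3, Ccna2, Nusap1, Kif11 and Rrm2, with log2 fold changes of 1.57 to 1.78. Pcna, the sliding clamp of replication, and Mcm2, of the replicative helicase, were not called, at 0.44 and 1.02.

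By array, the median of the division genes over the Sham mean was 2.98 on DHI 1, 0.37 on DHI 2 and 1.35 on DHI 3, and 2.22 to 3.41 on the I/R arrays. More than 1.5-fold above the Sham range were 18 of 20 genes on DHI 1 (20.8% of all genes were), 2 on DHI 2 (2.79%) and 13 on DHI 3 (5.11%). The number of calls changed with the arrays used, to 4 without DHI 1 or without Sham 2, 5 without DHI 3, Sham 1 or Sham 3 and 16 without DHI 2. It was 3 with no scaling, 6 with scaling to spike-in probes, 7 with only the 6 arrays of both groups in the model and 0 by the t-test of the methods. The list median was positive in each of these. Microglia markers moved on the same arrays, with a summed level of 0.911 to 1.06 on Sham and 7.97, 1.13 and 1.46 on DHI, and their part in these calls was not tested.

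**Figure D3:**
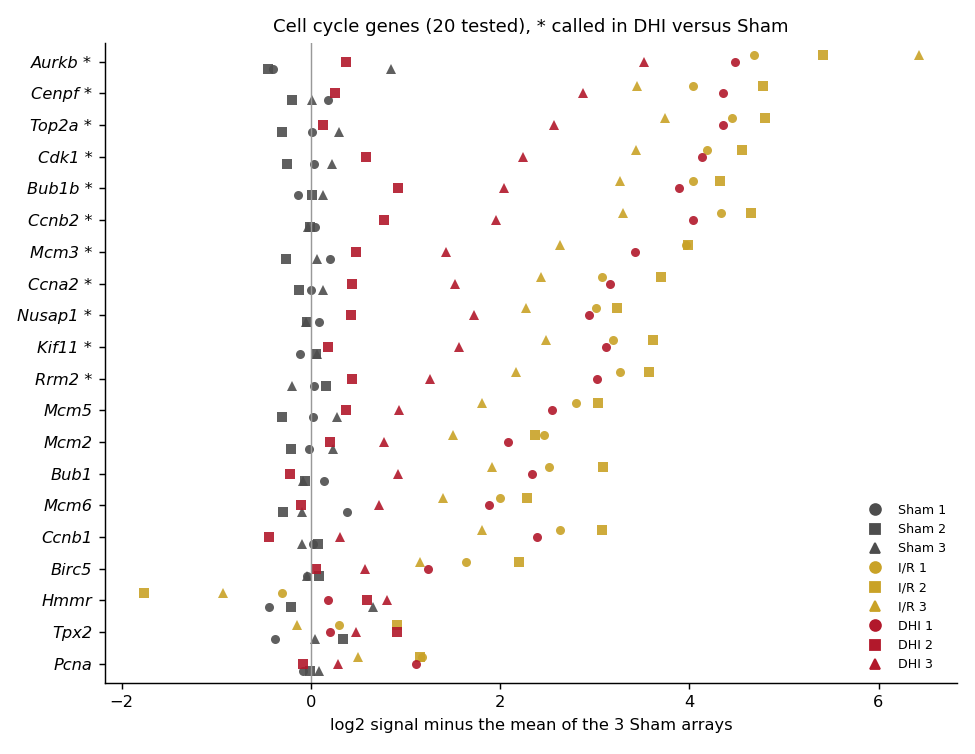
The 20 cell division genes tested, with an asterisk at those called. Each point is 1 array, the x axis is the log2 signal minus the mean of the 3 Sham arrays, colors mark the groups and shapes the array number. DHI 1 lies among the I/R points for most genes, DHI 3 between and DHI 2 near 0, with list medians of 2.98, 1.35 and 0.37.

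Since 11 of these genes were called in 1 direction, their promoters are shown to let their letters be read. RefSeq held a promoter (GRCr8) for 8 of the 11 called division genes. CCAAT, on either strand within 250 bases before the start, was in 7 of the 8 and in 34.0% of all 33469 promoters. TTTGAA, the core of the cell cycle homology region, was in 3 of the 8 and in 16.2% of all. The 140 bases before the start of 3 of them follow, written in the direction of the gene, with capitals at each match of either motif or its reverse complement. They lie at chr20:19265153-19265292 (plus strand), chr8:79981659-79981798 (minus strand) and chr10:84473094-84473233 (minus strand).
Cdk1: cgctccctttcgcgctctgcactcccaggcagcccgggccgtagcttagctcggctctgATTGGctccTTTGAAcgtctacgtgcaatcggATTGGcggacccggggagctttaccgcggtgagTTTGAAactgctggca
Ccnb2: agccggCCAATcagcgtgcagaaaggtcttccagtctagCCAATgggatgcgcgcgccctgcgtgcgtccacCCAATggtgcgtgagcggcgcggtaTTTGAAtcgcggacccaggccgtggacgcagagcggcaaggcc
Top2a: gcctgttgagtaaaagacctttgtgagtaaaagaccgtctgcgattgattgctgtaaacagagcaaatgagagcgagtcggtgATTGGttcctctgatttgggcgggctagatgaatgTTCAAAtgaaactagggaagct
All 3 stretches hold both motifs, but they are the 3 of the 8 promoters that held TTTGAA, and Bub1b held neither motif. A match of letters does not show that a factor binds there.

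Immediate early genes were the list with the most calls in the opposite direction. Of 15 tested, 8 were called lower (1.14% of all genes were), 0 higher and 1, Npas4, was away from Sham. The mean was lower for 15 of 15 and the median log2 fold change was -1.71. Npas4, a neuronal transcription factor induced by calcium entry, read -5.00, -2.87 and -2.50 on Sham, -8.72, -5.99 and -5.80 on DHI and -9.76, -9.18 and -9.17 on I/R. It was well above background on 2 of the 3 DHI arrays, and its log2 fold change was -3.38 (SE 0.88). Fos, the leucine zipper partner of Jun, read -1.53, 0.45 and 0.03 on Sham, -2.88, -1.67 and -3.51 on DHI and -2.48, -2.32 and -2.56 on I/R. Btg2, an antiproliferative protein induced by growth factors, read 0.15, 2.25 and 1.86 on Sham and -0.76, -0.30 and -0.98 on DHI. Dusp1, a phosphatase of MAP kinases, read -2.77, -0.55 and -1.03 on Sham and -4.60, -2.78 and -4.19 on DHI. In these 4 genes every DHI array was below every Sham array, but Sham 1 was well below Sham 2 and Sham 3 and was the Sham array nearest to DHI. The log2 fold changes of Fos, Btg2 and Dusp1 were -2.34 (SE 0.59), -2.10 (SE 0.49) and -2.40 (SE 0.68). Junb, Ier2, Egr2 and Nr4a1 were also called lower, with log2 fold changes of -2.08 to -1.42. Their DHI and Sham arrays overlapped for Junb, Egr2 and Nr4a1. Arc, which acts at the dendrite, had a log2 fold change of -2.56 but was not called, as DHI 2 at 3.69 lay within the Sham range of 3.13 to 4.70. Egr3, Nr4a3, Fosl2, Homer1, Egr1 and Egr4 were not called, with values from -1.71 to -0.28.

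The DHI arrays lay apart from each other here too, with list medians of -2.41, -0.37 and -1.93 for DHI 1, DHI 2 and DHI 3, while the Sham arrays stood at -0.91, 0.66 and 0.25. More than 1.5-fold below the Sham range were 14 of 15 genes on DHI 1 (21.7% of all genes were), 1 on DHI 2 (1.78%) and 10 on DHI 3 (1.68%). The number of calls was 4 without Sham 2, 5 without DHI 3, 11 without DHI 2, with array weights or with the replicate number as a block, and 2 by the t-test of the methods. Relative to the Sham mean, the summed level of pan-neuronal genes was 0.327, 1.03 and 0.829 on the DHI arrays, and that of the immediate early genes 0.146, 0.712 and 0.295. The part that the share of neurons played in these calls was not tested.

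**Figure D4:**
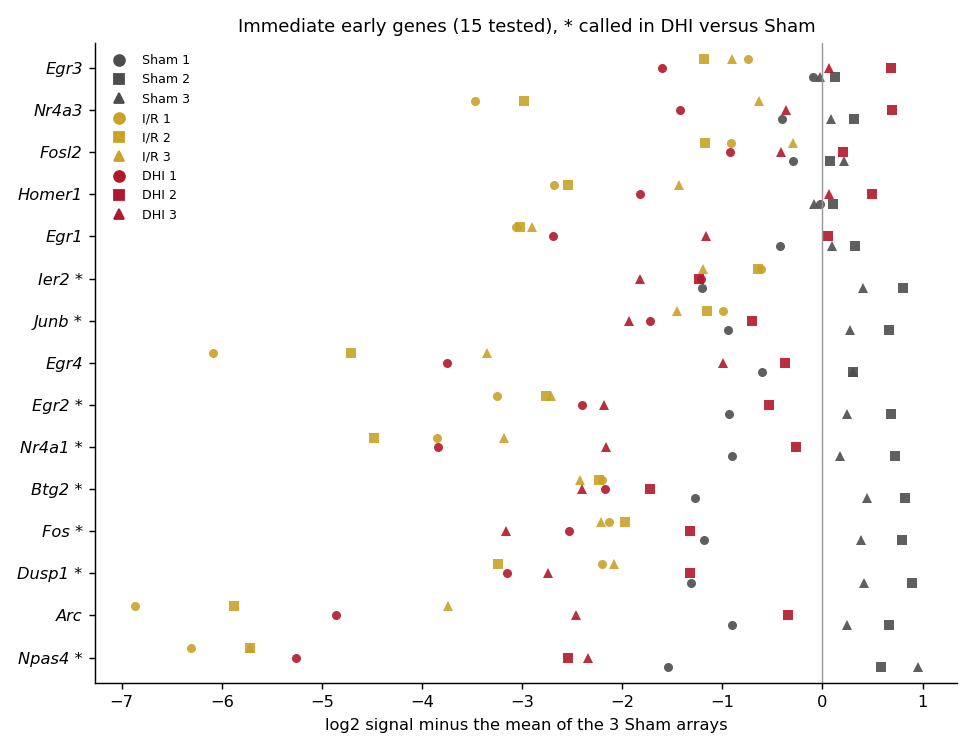
The 15 immediate early genes tested, with an asterisk at those called. Each point is 1 array, the x axis is the log2 signal minus the mean of the 3 Sham arrays, colors mark the groups and shapes the array number. Sham 1 lies to the left of the other Sham arrays, with a list median of -0.91, and DHI 2 lies nearest to Sham at -0.37.

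The promoters of these genes are shown for the cAMP response element TGACGTCA and its shorter form TGACG, which lies within it, searched on both strands of the 250 bases before the start. RefSeq held a promoter for 7 of the 8 called genes. TGACGTCA was in 3 of the 7 and in 1.59% of all promoters, and TGACG was in 6 of the 7 and in 18.2% of all. The 140 bases before the start of 3 genes lie at chr19:40399233-40399372, chr10:17184713-17184852 and chr7:134259998-134260137 (GRCr8, plus strand), with each match of either motif or its reverse complement in capitals.
Ier2: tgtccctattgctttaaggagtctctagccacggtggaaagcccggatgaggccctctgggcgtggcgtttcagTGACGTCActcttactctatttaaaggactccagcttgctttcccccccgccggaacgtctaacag
Dusp1: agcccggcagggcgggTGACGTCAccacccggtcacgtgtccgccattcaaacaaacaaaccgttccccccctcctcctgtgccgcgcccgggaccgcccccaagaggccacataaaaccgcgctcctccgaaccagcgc
Nr4a1: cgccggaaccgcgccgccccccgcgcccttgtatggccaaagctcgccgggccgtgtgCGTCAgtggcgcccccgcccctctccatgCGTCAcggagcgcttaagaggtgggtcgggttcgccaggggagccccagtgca
Ier2 and Dusp1 hold the full element in this stretch, and Nr4a1 holds the shorter form. The promoter of Npas4, not shown, held neither.

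The lower set was led by Nr4a2, an orphan nuclear receptor of dopamine and cortical neurons that activity also induces. Its probe at chr3:38867352-38867411 (rn4) read 1.17, 1.45 and 1.16 on Sham, -0.65, -0.22 and -0.59 on DHI and -1.28, -2.54 and 0.66 on I/R. A brighter probe of the same gene gave 2.86, 3.14 and 2.74 on Sham and 0.94, 1.43 and 1.06 on DHI. The Sham arrays agreed closely and all DHI arrays were well below them on both probes, DHI 2 included, with log2 fold changes of -1.75 (SE 0.68) and -1.77 (SE 0.66). It was not called without DHI 1. Per2, a repressor of the circadian clock, read -1.53, -1.46 and -1.47 on Sham and -3.12, -2.33 and -2.28 on DHI. Every DHI array was below Sham, and the log2 fold change was -1.09 (SE 0.36), or -0.81 and not called without DHI 1. Of the other 15 clock genes tested 0 were called, and Dbp, a clock output, read 3.90 to 4.14 on Sham and 3.47 to 3.80 on DHI, a difference of -0.36. Klf2, a Kruppel-like factor of endothelium and T cells, read -2.62, -1.54 and -2.16 on Sham and -3.42, -3.25 and -4.50 on DHI, and -2.70, -3.89 and -3.01 on I/R. Here DHI 3, not DHI 1, was the lowest array, and the log2 fold change was -1.62 (SE 0.45).

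Bag2, a cochaperone of Hsp70, was lower by a small and even step. It read 0.47, 0.52 and 0.43 on Sham and -0.40, -0.23 and -0.31 on DHI, a log2 fold change of -0.79 (SE 0.27). The arrays of each group lay close together, and the groups did not overlap. Fam5c, now Brinp3, a neuronal protein linked to cell cycle arrest, had a log2 fold change of -1.33. Kirrel3, a synaptic adhesion molecule, was at -1.13, while its far brighter second probe was at -0.77 and neither called nor away. Tnfrsf9, a costimulatory receptor of T cells, was at -1.10. Fam5c and Kirrel3 were not called without DHI 1. Kcnh8, Vtcn1, Mup5 and Grap2 did not rise well above background anywhere in DHI. Their Sham arrays read -7.53 to -5.92. The differences were at least 2.93-fold for Kcnh8, 3.16-fold for Vtcn1 and 2.54-fold for Mup5, and 1.88-fold by the means for Grap2. With normexp background correction Kcnh8, Mup5 and Grap2 turned to 0.05, 0.14 and 0.17 in the other direction, and Vtcn1 was at -0.04 and not called.

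Genes of inflammation were higher on DHI 1 and near Sham on DHI 2, and calls were made in 1 to 3 members of each of 6 lists, where 2.52% of all genes were called higher. In the 31 interferon-stimulated genes tested, 3 were called higher and 31 had a higher mean, with a median of 1.56. Oasl, an oligoadenylate synthetase-like protein, was not well above background on Sham and read -4.17, -7.63 and -7.82 on DHI, well above background on 2 of these arrays, and was at least 4.90-fold higher. It was away from Sham on all DHI arrays. Ifit1, which binds viral RNA, read -8.89, -9.83 and -9.69 on Sham and -5.02, -8.69 and -6.93 on DHI, at least 3.87-fold higher. Oasl2 was higher by 2.13, with DHI 2 at -3.03 inside the Sham range. By array the list median was 3.77 on DHI 1, -0.18 on DHI 2 and 1.1 on DHI 3, against 3.50 to 5.01 on the I/R arrays.

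In complement, 2 of 17 genes were called higher, with a median of 1.46. C3, the central component, read -2.01, -1.96 and -0.81 on Sham, 4.28, -0.42 and 0.78 on DHI and 5.24, 4.65 and 3.79 on I/R. All DHI arrays were above all Sham arrays, DHI 2 by 0.39 only, and the log2 fold change was 3.14 (SE 1.08). Cfi read -4.78, -4.99 and -4.76 on Sham and -3.51, -4.18 and -4.18 on DHI, a smaller but more even difference of 0.89 (SE 0.25). The C1q genes were not called.

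Antigen presentation was called in 1 of 7 class II genes and 1 of 15 class I genes. Cd74, the invariant chain, read -0.77, -1.29 and -1.64 on Sham and 2.98, -0.50 and 0.97 on DHI, a log2 fold change of 2.38 (SE 0.84). B2m, the light chain of class I, was not called at 0.94, with DHI 2 at 2.41, at the level of the lowest Sham array. Cd74 was at 1.47 and not called without DHI 1. The class I call was RT1-T24-4, given above. Outside these counts, RT1-Db1, a class II beta chain, had a probe that was called and away, at 2.53, while the brighter probe that stands for it in the list was at 1.59 and not called. RT1-CE2, a class I gene that is on neither list, was called and away, at 1.57. Both differences were led by DHI 1.

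Of 13 TLR4 signaling genes, Tirap and Nfkbia were called higher. Tirap, the adaptor that bridges the receptor to Myd88, was well above background on 0 Sham arrays and 1 DHI array and was at least 1.86-fold higher. Nfkbia, the inhibitor of NF-kappaB and also a glucocorticoid target, read -0.55, -0.36 and -0.33 on Sham and 0.66, 0.68 and -0.29 on DHI, with DHI 3 next to Sham and a log2 fold change of 0.76. The list median was 0.76, or -0.02 without DHI 1. Of 20 chemokine genes, Ccl5, a T cell attractant, was called at 1.00, and the list median was 1.19, or -0.04 without DHI 1. Cx3cl1, the neuronal ligand of the microglial receptor, was at -0.51 and Cxcl12, which attracts lymphocytes, at 0.10, neither called, and both turned direction without DHI 1, to 0.07 and -0.13. With all arrays, a second Cxcl12 probe, nearly as bright, was at 0.81 and not called. With no scaling the brighter Cxcl12 probe was also lower, at -0.17.

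Among blood cell markers, neutrophil and T and NK cell genes held calls, where 2.52% of all genes were called higher. Csf3r, the receptor of granulocyte colony-stimulating factor, read -6.01, -5.62 and -5.40 on Sham and -1.86, -4.54 and -4.89 on DHI. S100a8, a calcium-binding alarmin, was higher by 1.13. Mpo, myeloperoxidase, was higher by 0.63 with DHI 2 and DHI 3, not DHI 1, as the high arrays, and had an I/R mean at -0.31 relative to Sham. These were 3 of 6 neutrophil genes tested, with a median of 0.99. Of 14 T and NK cell genes, Nkg7 and Gzmk, both of cytotoxic granules, were called higher by 1.13 and 0.84. Gzmk was dim, well above background on 1 Sham and 1 DHI array, and stayed called in 3 of 19 alternatives. B and plasma cell genes had 0 calls of 3, and red cell genes 0 of 6, though the latter had a summed level of 0.226 to 1.84 on Sham and 0.451 to 2.38 on DHI.

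No marker of microglia and macrophages was called, of 19 tested, although 18 had a higher mean and the median was 1.13. Laptm5, a lysosomal membrane protein, read 2.12, 1.92 and 1.85 on Sham and 5.33, 2.13 and 2.68 on DHI. DHI 1 was far above Sham, and DHI 2 was above it by 0.01 only. On I/R it read 4.78 to 6.33. The same held for lipid-laden phagocytes, with 0 of 25 called and a median of 1.35. Apoe, the lipid carrier, read 6.44 to 6.60 on Sham and 7.35, 6.75 and 6.72 on DHI, and Ctsb, cathepsin B, 5.14 to 5.24 and 6.64, 5.40 and 5.23. On these lists 18 of 19 and 23 of 25 genes were more than 1.5-fold above the Sham range on DHI 1, 1 and 1 on DHI 2 and 6 and 6 on DHI 3. Of all genes, 20.8%, 2.79% and 5.11% were above it on these arrays.

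Reactive astrocyte genes were called higher in 2 of 23 cases, Lcn2 and Gfap, where 2.52% of all genes were. Gfap, the intermediate filament, read -1.18, -0.60 and -0.69 on Sham, 2.51, -0.20 and 0.10 on DHI and 2.92, 3.29 and 2.21 on I/R, a log2 fold change of 1.62 (SE 0.67). Without DHI 1 it was 0.77 and not called. All DHI arrays were above Sham, DHI 2 and DHI 3 by less than 1. A second, dimmer probe of Gfap was away from Sham, with 1.97. The list median was 0.72, or 0.14 without DHI 1. Homeostatic astrocyte genes had 0 of 17 called and a median of -0.14, and scar and matrix genes 0 of 21 and 1.09. More than 1.5-fold above the Sham range were 21 of 21 scar and matrix genes on DHI 1 (20.8% of all genes were) and 0 on DHI 3 (5.11%).

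**Figure D5:**
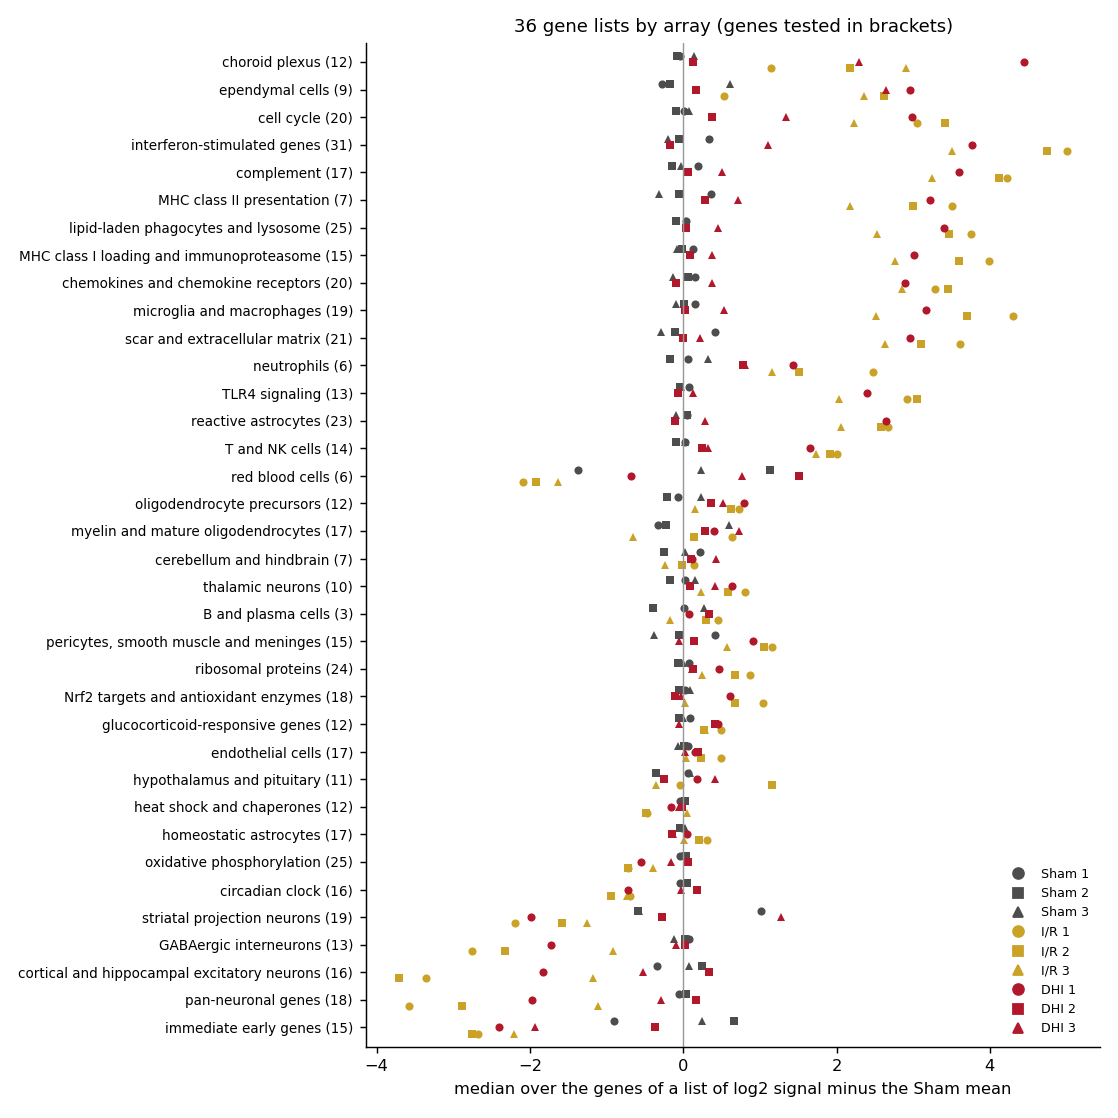
Medians of 36 gene lists on each array, with the number of genes tested in brackets. The x axis is the median over a list of the log2 signal minus the Sham mean, colors mark the groups and shapes the array number. DHI 2 lies near the Sham points for most lists, and choroid plexus, ependymal and cell cycle genes have the highest DHI 3 points among the lists, at 2.29, 2.64 and 1.35.

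None of 18 pan-neuronal genes was called. All 18 were well above background on every Sham and DHI array, in keeping with the brain label, and 18 of 18 had a lower mean, with a median of -0.72. Uchl1, a ubiquitin hydrolase of neurons, read 6.51, 6.39 and 6.42 on Sham and 5.0, 6.45 and 6.31 on DHI, and 3.64, 4.51 and 5.83 on I/R. Eno2, neuronal enolase, read 4.59 to 4.61 on Sham and 3.43, 4.86 and 4.65 on DHI. DHI 1 alone was clearly lower, and without it Eno2 turned to 0.16. More than 1.5-fold below the Sham range were 18 of 18 genes on DHI 1 (21.7% of all genes were), 0 on DHI 2 (1.78%) and 2 on DHI 3 (1.68%). Without DHI 1 the list median was -0.07.

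Markers of brain region also differed between arrays of 1 group. Striatal projection neuron genes had a summed level of 1.62, 0.762 and 0.616 on Sham and 0.225, 0.768 and 1.58 on DHI, so Sham 1 and DHI 3 held the most striatal signal, and 0 of 19 were called. The list median was -0.27, or 1.34 with array weights, 0.47 without DHI 1 and 0.12 without Sham 1. Drd2, the D2 dopamine receptor, was chosen after its values were seen, and read 2.26, -1.85 and -0.86 on Sham and -3.0, -0.77 and 2.23 on DHI. Of 16 excitatory neuron genes 1 was called lower, Nr4a2 (1.14% of all genes were). Nrgn, a calmodulin-binding protein, was at -0.72, not called, but turned to 0.04 without DHI 1. Interneuron, thalamic and hypothalamic genes had 0 calls of 13, 10 and 11. Of 7 cerebellum and hindbrain genes Zic1 and Zic4, zinc finger factors that are also active in meninges and septum, were called higher by 1.62 and 2.03 (2.52% of all genes were). Both had high values on DHI 1 and DHI 3, with DHI 2 among Sham. Whether these marker differences reflect tissue content, and what they contributed to the calls, was not tested.

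The median of the oligodendrocyte precursor genes was above that of every Sham array on all DHI arrays, by a small step. Of 12 tested, 4 were called higher (2.52% of all genes were) and 0 lower, and 11 had a higher mean. The median was 0.56, or 0.46 without DHI 1. For I/R the list median was also above Sham, at 0.44, with the I/R arrays at 0.73, 0.62 and 0.15. Enpp6, a choline phosphodiesterase of newly forming oligodendrocytes, read -2.90, -3.63 and -2.08 on Sham and -0.49, -2.07 and -1.03 on DHI. Lhfpl3, a tetraspan protein, read -3.15, -4.06 and -3.42 on Sham and -2.70, -2.92 and -2.60 on DHI. Olig1, a lineage factor, read 2.11, 1.98 and 2.54 on Sham, 2.50, 2.86 and 3.04 on DHI and 2.46, 2.07 and 1.76 on I/R. DHI 1 was the lowest DHI array for Olig1 and lay inside the Sham range, and the I/R mean differed from Sham by -0.12. Neu4, a sialidase, was higher by 0.85. Mature myelin genes had 0 of 17 called, 17 with a higher mean and a median of 0.55, against -0.06 for I/R. Sham 3 was the Sham array with the most myelin signal, at 0.59 over the Sham mean, within the DHI arrays at 0.28 to 0.72. Enpp6 and Neu4 were not called without DHI 1, while Lhfpl3 and Olig1 were. The number of calls in the precursor list was 1 without Sham 2 or DHI 3, 2 without Sham 1 or DHI 1, and 0 with no scaling.

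Vessel genes gave 1 call. Of 17 endothelial genes Abcb1a, the P-glycoprotein efflux pump of the blood-brain barrier, was called lower (1.14% of all genes were). It read -4.74, -5.04 and -5.22 on Sham, -5.33, -5.80 and -5.93 on DHI and -5.00, -5.18 and -5.37 on I/R. The DHI arrays were below all Sham arrays by a small step of at least 0.10, with a log2 fold change of -0.68 (SE 0.21), and DHI 1 was the nearest to Sham. Abcb1a stayed called in 17 of 20 alternatives, with values from -0.95 to -0.07. It lost the call both among the other scalings or sources and among the fits that left out 1 array. Slc2a1, the glucose transporter of the barrier, and Slco1a4, an anion carrier, were at 0.14 and 0.18 and not called, and both were lower with no scaling, at -0.13 and -0.09. The endothelial list median was 0.14, or -0.13 with no scaling. Pericyte and meningeal genes had 0 calls of 15, with a median of 0.23, or -0.03 with no scaling.

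Among the lists of stress and metabolism, glucocorticoid-responsive genes had 1 call of 12, Nfkbia, called higher (2.52% of all genes were). Mt2A, a metallothionein, was not called at 1.36. Cdkn1a, a cell cycle inhibitor, was at 0.11 by its brighter probe, which turned to -0.15 with no scaling and -0.10 without DHI 2. With all arrays, its dimmer probe was at 0.76 and not called, though DHI and Sham did not overlap. Heat shock, Nrf2 target, oxidative phosphorylation and ribosomal protein genes had 0 calls of 12, 18, 25 and 24, with medians of -0.10, 0.16, -0.20 and 0.22. With no scaling the Nrf2 and ribosomal medians turned to -0.10 and -0.04.

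Without DHI 1, Foxj1, Oasl2, Ccl5, Gzmk, Csf3r, S100a8, Nfkbia, Zic1, Zic4, Top2a, Aurkb and Cenpf also lost the call. Of the 59 named genes that were called, 23 stayed called in each of the 9 fits that left out 1 array, and 23 under all 5 other scalings or sources of values. Both held for 15, each by the probe described above. In the higher direction these were Ttr, Kif15, Clrn1, Phf11, Hist2h3c, Cass4, Nid1, Oasl, Ifit1 and Cdk1, and in the lower direction Npas4, Klf2, Dusp1, Fos and Btg2. Counting every alternative, Cdk1, Phf11, Nid1 and Dusp1 stayed called in 19 of 20, and Ifit1 and Npas4 in 18 of 19. Cdk1 lost the call by the t-test of the methods.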

How the data were processed

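Cy3-labelled RNA of 9 hemispheres was hybridized to 1-color Agilent SurePrint G3 rat arrays of 62976 spots. The intensity values deposited by the authors came from Agilent Feature Extraction 10.7.1.1, per the submitters' processing notes, which subtracted background and corrected spatial trends within each array. No array was saturated at any spot. Spots of 1 probe were averaged after control spots and outlier flags were left out, giving 30367 probes, and log2 intensity minus the log2 75th percentile of the array was used. Probes well above background on all 3 arrays of 1 or more groups were kept. The authors also deposited log2 values in a series table, with unstated scaling that looked like quantile normalization, and it served as an alternative source.

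A limma 3.58.1 model in R 4.3.3 with 3 group means was fitted to all 9 arrays, which leaves 6 residual degrees of freedom, and DHI was compared with Sham. A call needed an unadjusted p below 0.05 and a fold change above 1.5, as in the study's methods, and Benjamini-Hochberg adjustment ran over all probes tested. An exact permutation test of 3 against 3 arrays cannot give a p below 0.1. The pipeline was tested on simulated data. "At least" folds set the brighter group against the higher of the dim probe's signal and the lowest signal well above background on each array. Alternatives were quantile or no scaling, normexp background correction with an offset of 50, the series values of the authors, other filters on dim probes, only the 6 arrays, array weights, a replicate block, the t-test of the methods and leaving out each array. Scaling to the spike-in probes was added after seeing the data.

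Named genes were the 12 with the largest gap between groups in each direction, among called, away probes with a symbol that were well above background where higher, and up to 4 called members of each list, or its 2 brightest members where fewer than 2 were called. For lists with 0 calls the brightest members were named only for microglia, phagocytes and pan-neuronal genes, where 1 is not reported here, and Apoc2, Tpd52l3, Drd2, RT1-Db1, RT1-CE2 and further members of the called lists were named outside the rule. The gene lists and the comparison were chosen with earlier results of these data known. Gene names are those of the array files, probe coordinates are theirs (rn4), and promoters are RefSeq's of another build (GRCr8), matched by symbol only.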

Additional observations from a re-analysis of the deposited data

How the results depend on the processing

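Against 849 probes called, the count was 1688 with no scaling, 1341 with normexp correction, 1407 with no filter on dim probes, 3485 with array weights, 448 by the t-test of the methods and 344 to 2519 when 1 array was left out (344 without Sham 2, 557 without Sham 3, 2519 without DHI 2). Without DHI 1 it was 832, of which 357 were among the 849. After adjustment, 1987 probes passed with array weights, which gave DHI 1 a weight of 0.0936 and DHI 3 a weight of 4.5, and 0 passed under the other alternatives. The 88 probes away from Sham became 244 with no scaling, 169 with no filter, 46 where probes had to be well above background on all 9 arrays, and 88 to 1004 with 1 array left out (430 without Sham 1, 142 without Sham 2, 238 without Sham 3, 194 without DHI 1, 1004 without DHI 2, 250 without DHI 3). The 4414 probes not overlapping became 7595 with no scaling, 7181 with no filter and 4414 to 9826 with 1 array left out (8043 without Sham 1, 8147 without DHI 1, 9826 without DHI 2). A larger count without an array follows in part from the construction, as fewer arrays must lie beyond the range. With the replicate number as a block 1280 probes were called. Deviations of the same-numbered Sham and DHI arrays correlated at 0.0771, 0.304 and 0.0249, while Sham 1 correlated best with DHI 3 (0.089). Same-numbered Sham and DHI arrays also lay at the same row and column of their slides. Whether they form pairs was not tested. Differences that turned direction were, with normexp correction, Kcnh8 (0.0462), Mup5 (0.14) and Grap2 (0.17); with 1 array left out, Cx3cl1 (-0.90 to 0.0702), Cxcl12 (-0.13 to 0.26), Eno2 (-0.56 to 0.16) and Nrgn (-1.37 to 0.0398), each without DHI 1, and Cdkn1a (-0.0973 to 0.31), without DHI 2; with no scaling, Cxcl12 (-0.17), Slc2a1 (-0.13), Slco1a4 (-0.0887) and Cdkn1a (-0.15); with array weights, Cxcl12 (-0.15), Eno2 (0.0574) and Slco1a4 (-0.12). The causes were not tested. Of 36 list medians, 23 kept their sign under all 20 alternatives, and 13 did not. Over all named genes and alternatives, 277 values lost the call and 8 gained it. The median SE was 0.27 on the log2 scale.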
